A study of Mus musculus with 20 samples.

Results

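Chat, Slc5a7 and Ngfr, 3 genes that equip cholinergic neurons, were followed through the histone marks of the embryonic medial ganglionic eminence (MGE). The members were taken by name, 3 of 22350 protein-coding genes. Chat encodes choline acetyltransferase, the enzyme that makes acetylcholine. Slc5a7 encodes the high-affinity transporter that brings choline back into the terminal for that synthesis. Ngfr encodes p75, the low-affinity neurotrophin receptor, long used as a marker of basal forebrain cholinergic neurons. Together with the vesicular acetylcholine transporter gene Slc18a3, which lies inside Chat, such genes form the working apparatus of the mature cholinergic neuron.

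Cholinergic neurons of the striatum and basal forebrain arise from NKX2-1-expressing progenitors of the MGE and adjoining ventral forebrain. Effector genes of this kind are usually switched on after a neuron has left the cell cycle. Promoters of developmental genes that are not yet active often carry H3K4me3, a mark of promoters, together with H3K27me3, the mark set by Polycomb complexes. This combination is called bivalent. H3K27ac marks active promoters and enhancers, and H3K4me1 marks enhancers and the shoulders of promoters.

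All tissue was from mouse embryos at embryonic day 13.5. The 4 marks were profiled in MGE of C57BL/6 embryos, either wild type or with a conditional knockout of Nkx2-1 (label Nkx2-1cKO, here the mutant). NKX2-1 and LHX6, homeodomain factors of MGE cells, were profiled in basal ganglia of wild-type CD-1 embryos, so the factors and the marks differ in strain and in dissection. The Cre driver and the number of pooled embryos are not given in the labels used here. Since a single library stands for each antibody in each genotype, the values below carry no replicate error. No test between genotypes could be made, and each difference describes these libraries.

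After removal of duplicates the libraries of marks held 26.8 to 69.0 M tags (M for mega) and those of NKX2-1 and LHX6 89.1 and 50.7 M. The mutant lists were longer than the wild-type lists for every mark, with 1.13 times the covered length of H3K4me3 around genes, 1.22 times that of H3K27me3, 1.08 of H3K27ac and 1.03 of H3K4me1. H3K4me3 had the shallowest libraries and the most duplicates, 28.3% in wild type and 34.0% in the mutant. At Nkx2-1 itself, H3K27ac covered 12.6 kb within 10 kb of the start sites in wild-type MGE and 9.56 kb in mutant MGE; the labels do not say which part of the gene was deleted, so this checks no label. All 8 MGE markers had at least 0.5 kb of H3K27ac near the start in at least 1 genotype, as had 2 of 4 pallium markers. The same held for 2 of 3 endothelial and mural markers, 1 of 3 neural crest and glial markers and 1 of 2 microglial markers. It held for no red blood cell marker and no motor or hindbrain cholinergic marker. By promoter state, all 8 MGE markers had H3K4me3 with H3K27me3 in both genotypes. Neither red blood cell marker (Hba-a1, Hbb-b1) and neither microglial marker (Csf1r, Aif1) had H3K4me3 or H3K27me3 at the promoter. Of 3 endothelial and mural markers, Cldn5 had H3K4me3 with H3K27me3 in both genotypes, Pdgfrb had H3K4me3 with H3K27ac and no H3K27me3, and Pecam1 had neither H3K4me3 nor H3K27me3. Of neural crest and glial markers, Sox10 had H3K27me3 without H3K4me3 in both genotypes, while Foxd3 had both marks. The part that such cells have in the marks at Ngfr, which is also expressed in neural crest and glia, was not tested.

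The 3 genes lie on the minus strand, each with 1 annotated start site. On build mm9 (NCBIM37), Chat (ENSMUSG00000021919.6) runs from 33221389 to 33279095 on chromosome 14, Slc5a7 (ENSMUSG00000023945.6) from 54412919 to 54438359 on chromosome 17, and Ngfr (ENSMUSG00000000120.6) from 95430132 to 95449049 on chromosome 11. The start sites are the right-hand ends. The RefSeq promoter sequences of Chat and Slc5a7 placed the start on the same base, and that of Ngfr 37 bases further downstream. Slc18a3 is not in the annotation used, but its RefSeq promoter sequence matched 1 place in the genome, on chromosome 14. This put its start at 33278036, in intron 1 of Chat, 1059 bases downstream of the Chat start and on the same strand.

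The 250 bases before each start are shown because CpG-rich promoters are the ones that usually carry H3K4me3 and H3K27me3. Each sequence is from NCBIM37, read 5′ to 3′ on the minus strand, with CpG dinucleotides in capitals. They cover chr14:33279096-33279345 for Chat, chr14:33278037-33278286 for Slc18a3, chr17:54438360-54438609 for Slc5a7 and chr11:95449050-95449299 for Ngfr.
Chat: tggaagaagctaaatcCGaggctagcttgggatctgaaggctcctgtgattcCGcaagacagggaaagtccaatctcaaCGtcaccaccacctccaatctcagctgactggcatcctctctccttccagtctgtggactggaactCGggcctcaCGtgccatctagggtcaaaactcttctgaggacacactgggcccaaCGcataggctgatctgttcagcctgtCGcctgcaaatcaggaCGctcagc
Slc18a3: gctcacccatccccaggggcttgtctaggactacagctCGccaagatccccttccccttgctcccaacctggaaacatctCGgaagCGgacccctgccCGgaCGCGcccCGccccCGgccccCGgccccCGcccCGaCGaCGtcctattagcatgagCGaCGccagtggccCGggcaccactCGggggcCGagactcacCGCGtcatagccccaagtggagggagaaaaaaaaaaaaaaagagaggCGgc
Slc5a7: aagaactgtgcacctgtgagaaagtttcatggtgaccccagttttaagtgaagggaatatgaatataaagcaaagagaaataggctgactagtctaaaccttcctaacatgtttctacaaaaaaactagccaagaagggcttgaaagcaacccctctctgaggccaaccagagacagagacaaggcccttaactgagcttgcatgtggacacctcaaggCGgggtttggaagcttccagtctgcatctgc
Ngfr: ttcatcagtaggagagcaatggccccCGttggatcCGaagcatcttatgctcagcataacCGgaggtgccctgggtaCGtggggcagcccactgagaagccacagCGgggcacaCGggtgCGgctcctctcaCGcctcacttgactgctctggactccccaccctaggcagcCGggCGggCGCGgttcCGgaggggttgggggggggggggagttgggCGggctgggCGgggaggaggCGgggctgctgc

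The 4 stretches differ widely in CpG content. Chat had 8 CpG, the median of all genes, and Slc5a7 had 1, a count reached or undercut by 16.6% of genes. Ngfr had 16, at or above 72.0% of genes, and Slc18a3 had 21, at or above 83.0%. Over 1 kb on either side of the start, the ratio of observed to expected CpG was 0.410 at Chat, 0.398 at Slc5a7 and 0.508 at Ngfr. The median was 0.468 over all genes and 0.582 over genes with both H3K4me3 and H3K27me3 at the promoter in both genotypes. All 3 members thus lay below the median of that class, at or above 18.5%, 16.6% and 35.3% of its genes. CpG content describes the sequence and was not tested as a cause of the marks.

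All 3 promoters carried H3K4me3 and H3K27me3 in both genotypes, within 1 kb of the start site. Over all protein-coding genes, 17.4% had both marks in both genotypes, and 5.27% had different promoter states in wild type and mutant, by H3K4me3, H3K27me3 and H3K27ac. Among the genes with both marks in wild type, 98.0% had both in the mutant, so keeping both marks was the common outcome in this class. The promoters of Slc5a7 and Ngfr also carried H3K27ac and H3K4me1 in both genotypes. Chat had no H3K27ac within 1 kb in either genotype, and H3K4me1 there in wild type alone. Of the 3896 genes with H3K4me3 and H3K27me3 in both genotypes, 62.6% had H3K27ac in both as well and 27.6% had it in neither. The others had H3K27ac in 1 genotype and still count as unchanged in state. In dissected tissue, both marks on the same chromosomes and each mark in different cells cannot be told apart, nor can fewer marked cells and less mark per cell.

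**Figure D1:**
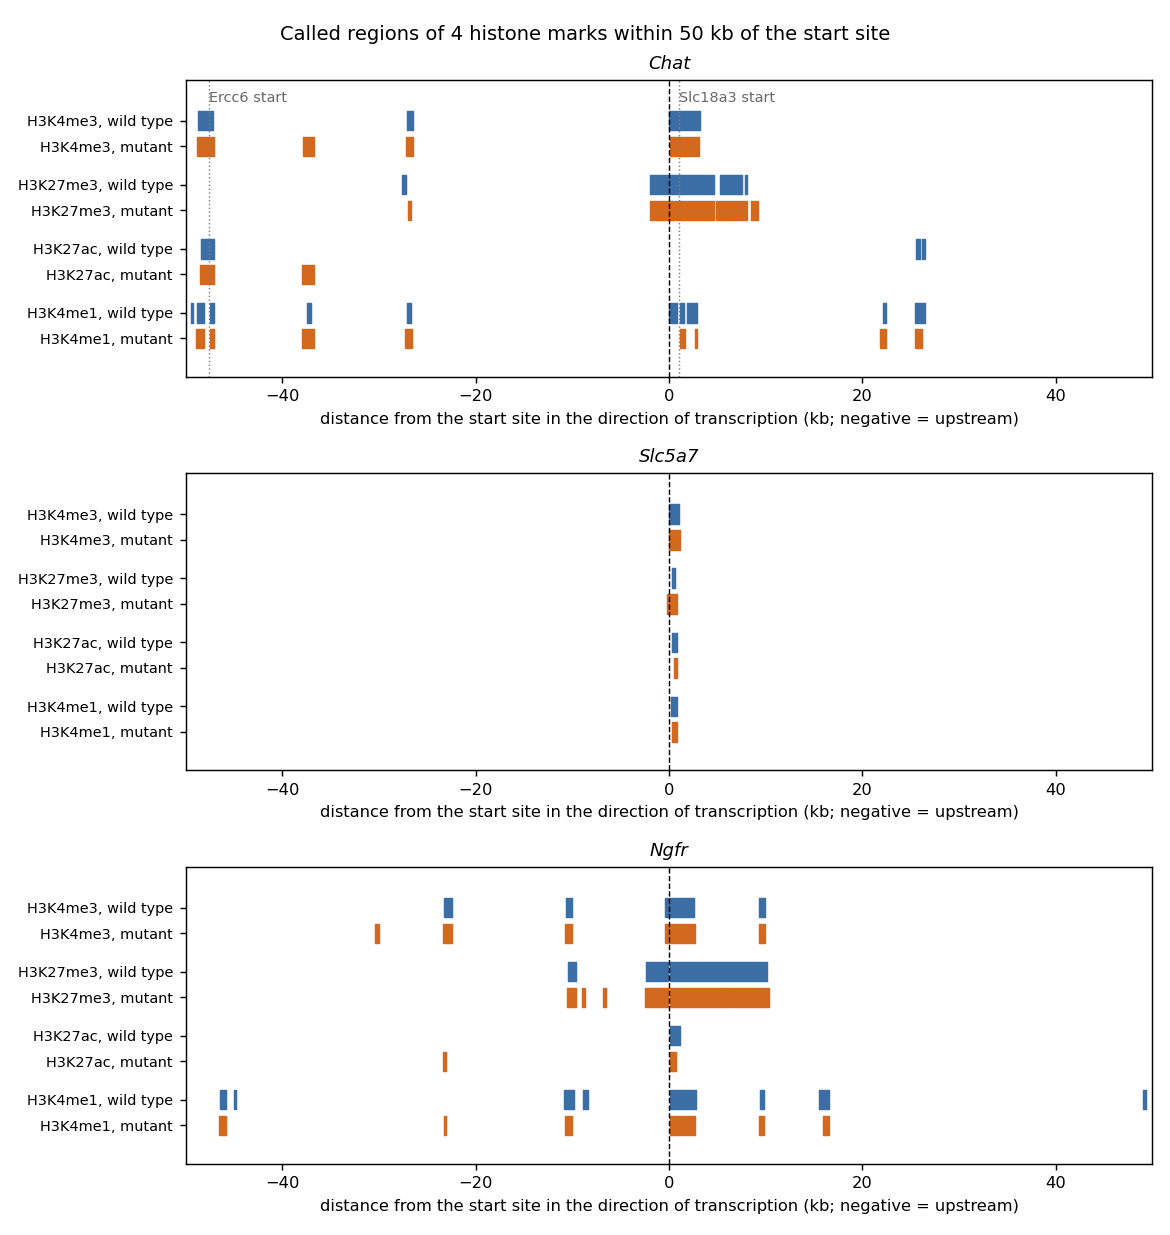
Called regions of H3K4me3, H3K27me3, H3K27ac and H3K4me1 in wild type (blue) and mutant (orange), by distance from the start site in kb in the direction of transcription, for Chat, Slc5a7 and Ngfr. Slc5a7 has marks at its start alone within 50 kb, while H3K27me3 extends for several kb at Chat and Ngfr in both genotypes.

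The 3 genes differed most in the length of H3K27me3. Within 10 kb of the start site, H3K27me3 covered 8.94 kb at Chat in wild-type MGE and 10.6 kb in mutant MGE. At Ngfr it covered 12.2 and 13.1 kb, and at Slc5a7 0.25 and 0.983 kb. The wild-type coverage was thus at or above that of 97.5% of all genes at Chat and of 98.4% at Ngfr. Set beside the 3896 genes with both marks in both genotypes, whose median was 2.76 kb in wild type, Ngfr lay at or above 92.3%, Chat at or above 88.1% and Slc5a7 at or above 0.513%. The order from longest to shortest was Ngfr, Chat, Slc5a7 in both genotypes, and no replicate exists to give the spread around each step.

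At Chat the marks lay over Slc18a3 as well as over the Chat start. In wild type 1 H3K4me3 region ran from 0.045 kb before to 3.16 kb after the Chat start (chr14:33275934-33279140), with 6 summits. Its strongest summit, at 1.33 kb after the start, had a fold enrichment of 14.01 in the authors' list. This fold is a ratio to 1 genome-wide background per list, and it was above or equal to 51.3% of that list. In the mutant the region ran from 0.084 to 3.13 kb after the start, so that the annotated Chat start was outside it. The start of Slc18a3 was covered in both genotypes. The strongest mutant summit, at 1.24 kb, had a fold of 17.4, at or above 59.5% of the mutant list. Of the 2 kb centred on the Slc18a3 start, H3K4me3 covered 2001 bases in wild type and 1976 in the mutant. Of the 2 kb centred on the Chat start it covered 1046 and 917. Marks of Chat, of Slc18a3 and of the noncoding RNA gene Gm2990, which starts 0.867 kb after the Chat start on the opposite strand, cannot be told apart here.

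H3K27me3 at Chat reached from 1.97 kb before the start to 8.11 kb after it in wild type, in 5 regions. The strongest of these had a fold of 11.4, at or above 95.8% of the wild-type list, with its summit 2.77 kb after the start, in intron 1. In the mutant the regions ran from 1.95 kb before to 9.23 kb after the start, and a single region covered the starts of both Chat and Slc18a3. That region had 12 summits and a fold of 14.5, at or above 97.5% of the mutant list. H3K27me3 covered 97.3% of the H3K4me3 length within 10 kb in wild type and 100% in the mutant. The bases covered by both marks came to 3.12 and 3.05 kb.

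H3K4me1 was the mark of Chat that changed past the threshold. It covered 2.11 kb within 10 kb of the start in wild-type MGE and 0.818 kb in mutant MGE, a ratio of 0.388. A change was called where the mutant differed by at least 1.5-fold and 0.5 kb. Among genes with at least 0.5 kb of H3K4me1 in either genotype, 3.83% were called lower and 5.59% higher, and 2.81% had a fall at least as large in kb as that of Chat. Of the 5 wild-type regions, those over the Chat start and at 0.662 and 2.05 kb after it had no overlap in the mutant list. These 3 regions had folds of 3.20, 3.53 and 3.20 in wild type, at or above 10.7%, 22.8% and 10.7% of the list. They were thus among its weaker regions, and with −log10 p of at least 10 required of every region the call was lost, with 0.673 kb in wild-type MGE and 0.51 kb in mutant MGE. All of the H3K4me1 within 10 kb lay on H3K27me3 in both genotypes.

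Slc5a7 had the smallest marked domain of the 3 genes, and nearly all of it lay just after the start site. H3K4me3 covered 1.07 kb in wild type (chr17:54437310-54438375) and 1.11 kb in the mutant, with 1 summit 0.57 kb after the start in both. The fold was 25.3 in the wild-type list and 29.7 in the mutant list, the strongest H3K4me3 of the 3 genes in each genotype. H3K27ac covered 0.525 and 0.324 kb, and H3K4me1 0.633 and 0.532 kb. H3K27me3 consisted of 1 region of 250 bases in wild type (chr17:54437749-54437998), with a fold of 3.11 and a −log10 p of 6.74, at or above 14.2% of the list. In the mutant it covered 983 bases and the start itself, with a fold of 4.56, at or above 62.3% of that list.

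H3K27me3 at Slc5a7 was called higher in the mutant, with 3.93 times the wild-type length. Of genes with at least 0.5 kb of H3K27me3 in either genotype, 30.4% were called higher and 1.61% lower, so this call was common among genes in these lists. The change of 0.733 kb at Slc5a7 lay at or above that of 61.8% of these genes, whose median change was 0.557 kb. With −log10 p of at least 10 required, the wild-type region was lost and Slc5a7 had H3K27me3 in the mutant alone, so its bivalent state in wild type rests on this weak region. Elsewhere within 50 kb of Slc5a7 the lists held no region of the 4 marks in either genotype, and no other protein-coding gene starts in that window.

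Ngfr had the longest domain, with H3K27me3 over much of the gene body. In wild type 2 regions covered the gene from 0.099 to 10.1 kb after the start, with a gap between 6.41 and 6.52 kb. The stronger had a fold of 12.8, at or above 97.5% of the list, with its summit in intron 1 at 3.04 kb. In the mutant the corresponding regions ran from 0.108 to 10.3 kb, and the stronger had a fold of 13.7, at or above 96.9% of that list. H3K27me3 left the start of Ngfr itself uncovered in both genotypes. The gap ran from −0.126 to 0.099 kb in wild type and from −0.123 to 0.108 kb in the mutant, where negative distances lie before the start.

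H3K4me3 spanned the start of Ngfr. It ran from 0.373 kb before to 2.61 kb after the start in wild type (chr11:95446441-95449422), with a fold of 22.5, and from 0.407 kb before to 2.71 kb after it in the mutant, with a fold of 27.04. A separate H3K4me3 region lay on exon 3, at 9.65 kb after the start, with folds of 10.3 and 17.7 in the wild-type and mutant lists. H3K27ac covered 1.05 kb in wild-type MGE and 0.638 kb in mutant MGE, a ratio of 0.606. Its fold was 3.91 in the wild-type list and 4.81 in the mutant list, so the shorter mutant region had the higher fold. H3K4me1 covered 3.63 and 3.01 kb. All of the wild-type H3K27ac lay on bases that also carried H3K4me3 and H3K27me3.

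**Figure D2:**
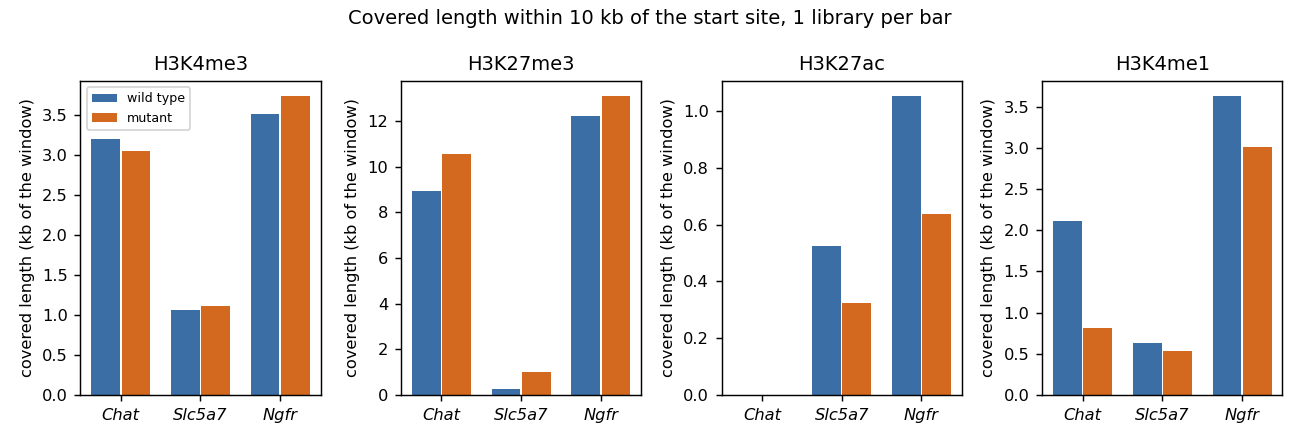
Length covered by each mark (kb) in the window from 10 kb before to 10 kb after the start site, with 1 bar per library, wild type in blue and mutant in orange. H3K27me3 bars are higher in the mutant for all 3 genes, and H3K27ac is 0 at Chat in both genotypes; the vertical scale differs between marks.

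Within 10 kb of the start, H3K4me1 was shorter and H3K27me3 longer in the mutant at all 3 genes, in most cases by less than the threshold. H3K27ac was shorter at both genes that had it, with 61.7% of the wild-type length at Slc5a7 and 60.6% at Ngfr, and neither passed the call. Slc5a7, with 0.525 kb in wild-type MGE, could be called lower only by losing nearly all of it. Background rates for H3K27ac were 2.89% called lower and 8.09% called higher. A change as low or lower was found in 15.3% of tested genes for Slc5a7 and 9.26% for Ngfr, beside a median rise of 0.115 kb over all genes tested. H3K4me1 was shorter at all 3 genes, and over all genes its median change was 0.006 kb. A change as low or lower was found in 2.81% of tested genes for Chat, 39.1% for Slc5a7 and 10.7% for Ngfr. With −log10 p of at least 10 the changes were −0.163 kb at Chat, −0.101 kb at Slc5a7 and −0.128 kb at Ngfr. In a window of 5 kb they were −1.29, −0.101 and −0.09 kb. H3K27me3 was longer at all 3, by 1.62 kb at Chat, 0.733 kb at Slc5a7 and 0.861 kb at Ngfr, against a median rise of 0.557 kb. With equal covered length in both genotypes the rises came to 0.898 kb at Chat and 0.264 kb at Ngfr, and in a window of 5 kb to 0.268 and 0.204 kb, while that at Slc5a7 stayed at 0.733 kb. Within 50 kb H3K27ac at Chat was longer in the mutant, at 2.60 kb against 1.92 kb, as was H3K4me3, at 6.72 kb against 5.41 kb.

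H3K4me3 hardly differed in length. It changed by −0.158 kb at Chat, 0.047 kb at Slc5a7 and 0.222 kb at Ngfr, where the median over all genes tested was a rise of 0.238 kb. None was called, and the background was 0.209% lower and 5.6% higher. The small fall in length at Chat was among the lowest changes of this mark, since 2.92% of tested genes had a change as low or lower. The fold of that region did not fall with its length, at 14.01 in the wild-type list and 17.4 in the mutant list. Of the 12 pairs of gene and mark, 1 was called lower (H3K4me1 at Chat) and 1 higher (H3K27me3 at Slc5a7).

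**Figure D3:**
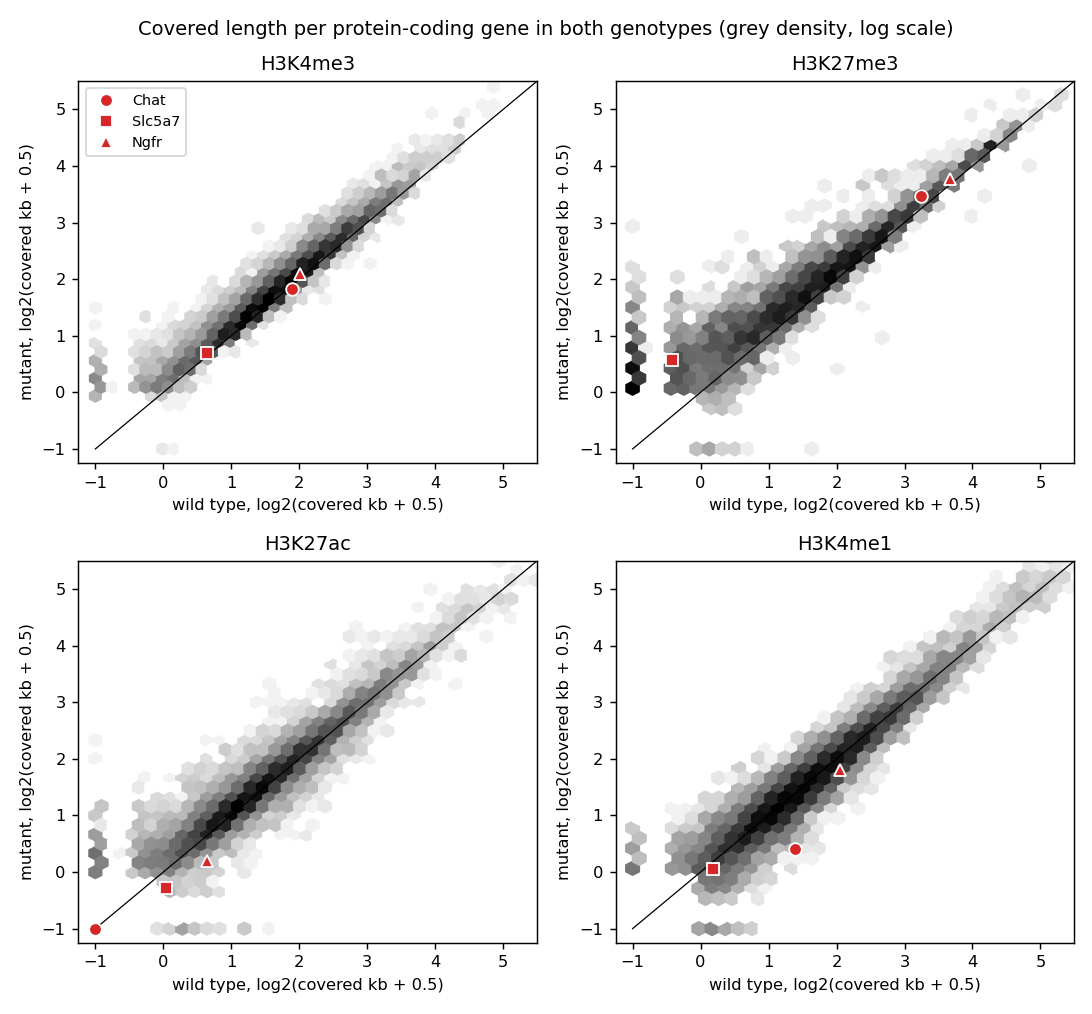
Length covered within 10 kb of the start sites, as log2(covered kb + 0.5), in wild type (horizontal axis) and mutant (vertical axis), for protein-coding genes with at least 0.5 kb of the mark in either genotype (grey, darker where more genes fall) and for Chat, Slc5a7 and Ngfr (red). On the diagonal the genotypes are equal; Chat lies well below it for H3K4me1, Slc5a7 lies above it for H3K27me3, and Chat sits at the lower left for H3K27ac, with 0 kb in both genotypes.

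In all 3 genes the marks were skewed towards the transcribed side. Of the H3K4me3 length within 10 kb in wild type, 98.6% lay downstream of the start at Chat, 98.5% at Slc5a7 and 89.4% at Ngfr. For H3K27me3 the shares were 78.0%, 100% and 80.1%. No share over all genes stands beside these, and the downstream marks at Chat include those over the start of Slc18a3. All H3K27ac at Slc5a7 and Ngfr lay downstream in both genotypes. The strongest H3K27me3 summits lay 2.77 kb after the start at Chat and 3.04 kb after it at Ngfr, further in than the strongest H3K4me3 summits at 1.33 and 0.24 kb. At Slc5a7 the order was the opposite, with the H3K27me3 summit at 0.393 kb and the H3K4me3 summit at 0.57 kb in wild type.

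**Figure D4:**
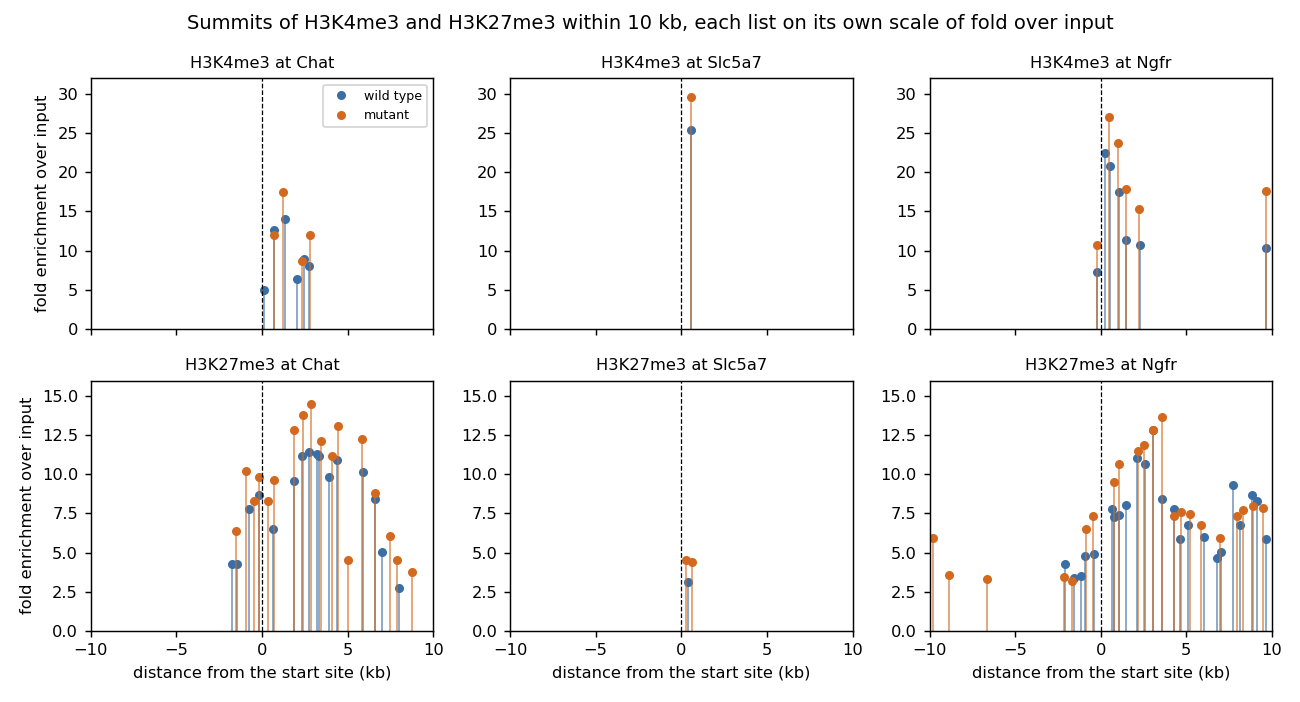
Each point is a summit of H3K4me3 (top) or H3K27me3 (bottom) within 10 kb of the start site, wild type in blue and mutant in orange. Points are placed by distance in kb and by fold enrichment in the authors' list. The axis label names input, but the fold is over 1 genome-wide background per list. The H3K27me3 summits of Chat and Ngfr reach folds of 11.4 and 12.8 in wild type, while Slc5a7 has 1 summit with a fold of 3.11; folds of different lists are shown side by side and are not tested.

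Away from the promoters, Chat had 2 acetylated sites that differed between genotypes. In intron 8, H3K27ac regions at 25.6 to 25.9 kb and at 26.2 to 26.5 kb after the start (chr14:33253173-33253532 and chr14:33252589-33252882) were present in wild type alone. Their folds were 3.91 and 3.56, at or above 35.4% and 24.1% of the list. H3K4me1 overlapped both regions in wild type, with a fold of 5.63. In the mutant an H3K4me1 region (chr14:33252886-33253666), with a fold of 4.30, overlapped the nearer of the 2 and stopped a few bases short of the other. Over the genome, 19.4% of wild-type H3K27ac regions had no overlap in the mutant, and 42.1% of those overlapped H3K4me1 in both genotypes. The median −log10 p of the lost regions was 9.04, against 14.4 for all wild-type H3K27ac regions, and the 2 at Chat had 10.9 and 9.04.

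The other site lay between −37.9 and −36.7 kb, before the Chat start and between Chat and the DNA repair gene Ercc6, and was marked more broadly in the mutant. H3K27ac covered 1205 bases there in the mutant (chr14:33315836-33317040) and none in wild type, with a fold of 4.69. H3K4me3 covered 1143 bases in the mutant and none in wild type, with a fold of 8.94. H3K4me1 covered 407 bases in wild type and 1191 in the mutant. Over the genome, 29.6% of mutant H3K27ac regions and 28.1% of mutant H3K4me3 regions had no wild-type overlap. Of the 19917 mutant-only H3K27ac regions, 8.30% lay, like this one, on a mutant-only H3K4me3 region and on wild-type H3K4me1. The site is 9.67 kb from the start of Ercc6, and which gene it serves was not tested. The promoter of Ercc6 itself, which starts at −47.6 kb, held the remaining H3K27ac of the window in both genotypes, 1263 and 1391 bases. A further H3K4me3 region, with its summit at −26.8 kb, was present in both lists with folds of 13.2 and 20.3.

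The 200 bases around a summit of each site are shown, from chr14:33253268-33253467 and chr14:33316013-33316212, minus strand, because they hold the acetylation that differed near Chat. Cores of the NK2 homeodomain family (the letters CACTTGA or the letters CACTCAA) and of LIM homeodomain factors (the letters TAATTA or the letters TAATGA), searched on both strands, are in capitals.
Chat intron 8, acetylated in wild type: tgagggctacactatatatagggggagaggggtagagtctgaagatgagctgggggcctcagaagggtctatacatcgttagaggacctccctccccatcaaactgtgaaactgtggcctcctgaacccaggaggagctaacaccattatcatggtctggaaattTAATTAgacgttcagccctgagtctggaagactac
Upstream of Chat, acetylated in the mutant: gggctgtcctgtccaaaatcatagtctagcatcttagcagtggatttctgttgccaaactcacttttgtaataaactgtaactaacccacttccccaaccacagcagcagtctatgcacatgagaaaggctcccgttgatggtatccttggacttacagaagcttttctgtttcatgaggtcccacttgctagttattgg

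The intron 8 window held 1 LIM core and no NK2 core, and the upstream window held neither. Windows of 200 bases around H3K27ac summits held a LIM core in 8.90% of wild-type and 9.56% of mutant regions, and an NK2 core in 4.59% and 4.55%. These matches describe letters and no binding.

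Around Ngfr, a site with its summit at −22.9 kb carried H3K4me3 in both genotypes, with folds of 13.0 and 15.04. In the mutant alone it also had 299 bases of H3K27ac and 250 bases of H3K4me1, with folds of 3.29 and 3.26. A further H3K4me3 region, with its summit at −30.2 kb, was present in the mutant alone with a fold of 3.71, at or above 2.55% of its list. Of the 8 wild-type H3K4me1 regions in the Ngfr window, 3 had no overlap in the mutant. Over the 3 windows, 7 of 21 wild-type H3K4me1 regions had none, where the genome-wide share was 15.2%, and 1 of 16 mutant regions had no wild-type overlap, where it was 23.8%. For H3K27me3, 1 of 12 wild-type regions (background 15.7%) and 5 of 12 mutant regions (background 46.6%) had no partner. Of 8 wild-type H3K4me3 regions none lacked a partner (background 3.65%), and of 10 mutant regions 2 did (background 28.1%). For H3K27ac, 2 of 5 wild-type regions (background 19.4%) and 2 of 5 mutant regions (background 29.6%) lacked one.

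Neither factor had a peak within 50 kb of any of the 3 genes. Over all genes, 27.9% had an NKX2-1 peak within 50 kb of a start site and 2.94% an LHX6 peak, so most genes had no peak of either factor at that distance. The nearest NKX2-1 peak to Ngfr lay 61.1 kb before its start (chr11:95510195-95510455), closest to Phb, carried none of the 4 marks and had a fold of 4.34. Within 100 kb Ngfr had 2 NKX2-1 peaks, and 41.3% of genes had at least 1. For Chat the nearest NKX2-1 peak was 380 kb away, at the start of Oxnad1, and for Slc5a7 it was 747 kb away. A nearer NKX2-1 peak was found for 74.9% of genes in the case of Chat, 87.4% for Slc5a7 and 31.4% for Ngfr. The nearest LHX6 peaks lay 597 kb from Chat, 1694 kb from Slc5a7 and 3535 kb from Ngfr, where the median over all genes was 1185 kb.

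The Ngfr promoter nevertheless held 1 NK2 core, 107 to 113 bases before the start (chr11:95449141-95449177, minus strand), shown here in capitals with 15 bases on either side.
Ngfr NK2 core: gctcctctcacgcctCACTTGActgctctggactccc
An NK2 core lay in the 250 bases before the start of 5.30% of genes, and the Chat, Slc18a3 and Slc5a7 stretches had none. A LIM core lay in 11.98% of genes and in none of the 4 stretches.

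A core of RE1, the element bound by the neuronal gene repressor REST, lay near Chat. An exact core of it with 2 free letters, searched on both strands after other results at these genes were known, matched 620 places on chromosomes 1 to 19 and X. Of genes with 1 start site, 0.956% had a match within 10 kb. The match at Chat lay between −1.89 and −1.88 kb (chr14:33280952-33281006 with 20 bases on either side, minus strand), and Slc5a7 and Ngfr had none. It is in capitals below and lay inside the upstream end of the H3K27me3 domain in both genotypes, which ended 1.97 and 1.95 kb before the start.
Chat RE1 core: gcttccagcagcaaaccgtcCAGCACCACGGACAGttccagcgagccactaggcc

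Other genes of acetylcholine metabolism and reception were tested as a list of 16, of which 15 were in the annotation. H3K27ac was called at none of the 11 tested in either direction, and H3K4me1 at none of 13. H3K4me3 was called higher at 1 of 12, Chrm1, a muscarinic receptor gene, from 1.24 to 2.26 kb. H3K27me3 was called higher at 4 of 9, beside 30.4% of all genes: Chrm1, Chrm2 (a muscarinic receptor gene), Prima1 (the membrane anchor of acetylcholinesterase) and Slc44a1 (a choline transporter gene). At Chrm2 it covered 2.83 kb in wild-type MGE and 4.56 kb in mutant MGE. The median change over the list was 0.921 kb for H3K27me3 and −0.015 kb for H3K27ac. Both H3K4me3 and H3K27me3 lay at 8 of the 15 promoters in both genotypes, beside 17.4% of all genes, including Ache, the gene of acetylcholinesterase.

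Neurotrophins, their receptors and p75 partners, a list of 14, had both marks at 10 promoters in both genotypes, beside 17.4% of all genes. H3K27ac was called higher at 1 of 11, Ntrk3, the receptor gene for neurotrophin-3, from 3.01 to 4.67 kb. H3K4me3 was called at none of 14. The background share called higher for H3K27ac was 8.09%. H3K27me3 was called higher at 1 of 10, beside 30.4% of all genes, and this was Ntrk2, the receptor gene for BDNF, from 3.27 to 7.41 kb. The list's median changes were −0.039 kb for H3K27ac and 0.437 kb for H3K27me3.

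Of the 6 transcription factor genes of cholinergic identity, all bivalent in both genotypes, H3K27ac was called lower at 3 and higher at 1, with a median change of −1.49 kb, beside 2.89% and 8.09% of all genes. H3K4me1 was called lower at 3 and H3K4me3 lower at 2 of these 6, beside 3.83% and 0.209% of all genes. The 3 effector genes had 1, 0 and 0 calls of these kinds for H3K4me1, H3K27ac and H3K4me3. For H3K27ac the rule left little room, since a call lower needs a fall of 0.5 kb. Chat had 0 kb in both genotypes, and Slc5a7 had 0.525 kb in wild type. With −log10 p of at least 10, or with equal covered length, H3K27ac at Slc5a7 was called lower (−0.525 kb). Several of the factor genes had been chosen with their changes known, and the difference between the lists was not tested.

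The genes whose covered lengths were most like each member over the 8 lists of marks were found by Euclidean distance of log2(covered kb + 0.5). For Chat these were Ovol2 (distance 0.486) and, with identical values, Slc30a3 and Gm9924 (0.558). For Slc5a7 they were Pdgfrl (0.601), Sema4f (0.652) and Birc3 (0.673), and for Ngfr Fmnl1 (0.543), Fgf8 (0.675) and Tnfrsf25 (0.772). Ovol2, like Chat, had long H3K27me3 (8.27 and 8.99 kb in wild type and mutant), no H3K27ac in either and less H3K4me1 in the mutant (2.19 and 1.10 kb). The members were less like each other, with distances of 2.62 between Chat and Ngfr, 5.27 between Chat and Slc5a7 and 6.15 between Slc5a7 and Ngfr.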

How the data were processed

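Peak lists of 10 libraries, grouped by antibody and genotype from the sample titles, were used. The 10 input and IgG libraries were not analysed here. Per the submitters' processing notes, the build was mm9 and the tools named are MACS2 2.1.0, BWA 0.6.2, bcl2fastq 1.8.4 and CASAVA 1.8.2. Per the file headers, MACS 2.1.0.20140616 called peaks against input at p 1e-05, after merging alignment files; it extended each tag by 250 bases, allowed 1 per position and used 1 genome-wide background. Deposited columns were the pileup (a signal, not printed), the −log10 p-value, the fold enrichment and a −log10 q-value, which the headers say was not calculated and was not used. The fold is the pileup over the 1 genome-wide background of its list, so it takes no account of input at the site.

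Summits sharing a region were merged and chromosomes 1 to 19 and X kept. Covered length is the union of regions in a window from 10 kb before the first to 10 kb after the last start site of a gene. Genes with several start sites thus have longer windows than the members, also in the shares over all genes. Starts came from GENCODE vM1 (22350 protein-coding genes), printed sequences from NCBIM37; RefSeq promoters (GRCm38.p6) were placed on it by exact match. With 1 library per group, no p-value was computed; a call means at least 1.5-fold and 0.5 kb, set beside all genes with at least 0.5 kb. Depth per library is given with the results, and it limits weak regions. Python 3.11.15, numpy 2.4.6, pandas 2.3.3, pysam 0.24.0, samtools 1.23.1, bedtools 2.31.1 and matplotlib 3.10.9 were used. Covered lengths were tested on simulated data (500 windows, 0 mismatches) and checked with bedtools (304 windows, 0 mismatches).

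The members, lists and patterns were chosen with earlier results of these data known. Named genes were the members, called genes of the acetylcholine and neurotrophin lists (some items are not reported here), the 3 genes most like each member and neighbours with a start within 50 kb. Alternatives were −log10 p of at least 10, windows of 5 and 25 kb, equal covered length, a fold of 2, other promoter windows and overlaps, and other distances to factor peaks.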

Additional observations from a re-analysis of the deposited data

How the results depend on the processing

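Of the alternatives run, 89 values kept their call or stayed within 1.5 times their count. With −log10 p of at least 10, the H3K4me1 fall at Chat shrank to −0.163 kb and was no longer called, H3K27ac at Slc5a7 became called lower (−0.525 kb), and the members with H3K27ac at the mutant promoter went from 2 to 1; the members with H3K4me3 and H3K27me3 in wild type also went from 3 to 2, without Slc5a7. With the same covered length in both genotypes, H3K27ac at Slc5a7 was again called lower (−0.525 kb), 2 pairs of gene and mark were called lower in place of 1, and 1 member kept H3K27ac at the mutant promoter. Both settings remove the weak mutant H3K27ac region of Slc5a7 from its list. Within 100 kb, 2 NKX2-1 peaks lay near Ngfr. A fold of 2 and windows of 5 and 25 kb left both counts of calls at 1, and other promoter windows and overlaps left the promoter counts as they were. No paired analysis was possible because the libraries compared have 1 sample per group, and the numbers shared by labels belong to inputs without a peak list. Regions near the deposited limit, such as wild-type H3K27me3 at Slc5a7, can appear or vanish with depth.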

Other observations

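Genes of other transmitter systems stood in the same promoter state in part. H3K4me3 and H3K27me3 lay together in both genotypes at 3 of 4 GABA effector genes (Gad1, Gad2 and Slc32a1), at 2 of 3 glutamate transporter genes (Slc17a6 and Slc17a7) and at 3 of 7 monoamine genes (Slc6a3, Slc18a2 and Slc6a4), beside 17.4% of all genes. No mark was called in either direction at the 4 GABA genes. At the glutamate genes, H3K4me3 and H3K27ac were each called higher at 1 of 2 tested, beside 5.6% and 8.09% of all genes. Among the monoamine genes, H3K27ac was called lower at 1 and higher at 1 of 5 tested, beside 2.89% and 8.09%. H3K4me3 was called higher at 2 of 6, beside 5.6%, and H3K27me3 higher at 1 of 4, beside 30.4%. The promoter of Ddc, which encodes a decarboxylase of dopamine and serotonin synthesis, had H3K27me3 in the mutant alone. Th, which encodes tyrosine hydroxylase, and Dbh, which encodes dopamine beta-hydroxylase, had neither H3K4me3 nor H3K27me3 at the promoter in either genotype. Differences between these lists were not tested.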
